A study of Mus musculus with 12 samples.

Results

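The 5 genes described here encode the subunits of the IL-12 cytokine family, Il12a, Il12b, Il23a, Il27 and Ebi3, and were taken by symbol from a table of read counts for 55401 mouse genes. The table holds 12 RNA sequencing libraries of Sp37A3, an immature dendritic cell (DC) line derived from mouse spleen and grown with GM-CSF and M-CSF. CtrV Sp37A3 cells carry an empty vector and are labelled as expressing Siglec-E, an inhibitory receptor for sialic acid. EKO Sp37A3 cells are a pool of clones in which Siglece was targeted with lentiviral CRISPR-Cas9. Each line was left unpulsed (ut in the labels) or pulsed with ovalbumin (OVA), with 24 h of processing time, in 3 libraries for each of the 4 groups. The paper's methods describe 24 h of LPS, a bacterial ligand of TLR4, after the OVA pulse and do not describe the unpulsed cells apart. LPS was taken here to apply to all 4 groups. No group is described as kept without LPS, so the levels were read as those of stimulated cells.

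Cytokines of the IL-12 family are heterodimers of an α-chain and a partner chain. IL-12 joins p35 (Il12a) to p40 (Il12b), IL-23 joins p19 (Il23a) to the same p40, IL-27 joins p28 (Il27) to EBI3 (Ebi3), and IL-35 joins p35 to EBI3. DCs secrete IL-12 and IL-23 after Toll-like receptor stimulation, IL-12 being known for Th1 and NK cell responses and IL-23 for the maintenance of Th17 cells. p40 is also secreted without an α-chain, and the level of each chain therefore bears on which dimers can form.

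Library totals lay between 27116201 and 39698572 counts, and 14079 genes passed the expression filter of a log2 CPM (counts scaled to library size) above 0 in at least 2 libraries. Siglece mRNA, the targeted gene, was at 150 to 163 CPM in the 6 CtrV libraries and at 166 to 235 CPM in the 6 EKO libraries. Every EKO library thus lay above the CtrV range. In edgeR's quasi-likelihood test Siglece was called higher in EKO cells with OVA (1.24-fold, adjusted p = 0.011) and without (1.33-fold, adjusted p = 0.0026). The paper reports little or no Siglec-E on the clones it pooled, and the receptor protein is not measured by these counts. The names of the lines below are those of the labels. Of the principal components of the most variable genes, the second held 7.11% of the variance and set replicate 1 of the EKO cells apart, at 18.8 unpulsed and 20.5 OVA-pulsed, while EKO replicates 2 and 3 lay between -18.3 and -1.15. Values without these EKO libraries are given beside each subunit that passed the filter and each balance, and for a pathway gene where they turned its direction or moved its fold by over 1.5 times. All 8 DC markers were present in every group, with a summed level of 21700 to 25100 CPM. Cd74 made up most of this sum, at 13940 to 18250 CPM, whereas Flt3 had 0.996 to 7.84 CPM. With OVA 4 of the 8 were called higher in EKO cells and 2 lower, and without OVA 3 and 2. Of all tested genes, 25.1% and 24.5% were called higher and 21.9% lower in each state. The 4 neutrophil markers were at 0 in all groups, and the summed T cell, NK cell, B cell and plasmacytoid DC markers stayed at or below 4.02, 0.486, 1.07 and 0.459 CPM. The 4 macrophage markers, none of them at 0, summed to 885 to 1030 CPM in CtrV and 1200 to 1330 CPM in EKO libraries. Among them C1qa had 281 to 324 CPM in CtrV and 545 to 690 CPM in EKO libraries. C1qa and Marco (0.317 to 1.96 CPM) were called higher in EKO cells in both states, whereas Adgre1 and Mertk were not called. The B cell sum was at most 0.211 CPM in CtrV and at least 0.45 CPM in EKO libraries. The part of macrophage and B cell markers in the results was not tested.

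Promoter windows of the RefSeq annotation of GRCm38.p6 were at hand for 3 of the 5 genes and are shown because these genes span the range of levels found: Il12b changed most between the lines, Ebi3 was high in both, and Il12a had no count. Each window holds the 250 bases before a transcription start on the plus strand, chr11:44399813-44400062 for Il12b, chr17:55952373-55952622 for Ebi3 and chr3:68691174-68691423 for the downstream of the starts of Il12a. Capitals mark letters that match the NF-kB pattern, which was GGG and CC with any 5 bases between them.
Il12b: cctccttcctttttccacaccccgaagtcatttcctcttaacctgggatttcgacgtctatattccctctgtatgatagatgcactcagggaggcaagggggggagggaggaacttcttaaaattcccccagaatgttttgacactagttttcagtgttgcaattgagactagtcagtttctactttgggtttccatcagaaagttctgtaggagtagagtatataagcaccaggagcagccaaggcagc
Ebi3: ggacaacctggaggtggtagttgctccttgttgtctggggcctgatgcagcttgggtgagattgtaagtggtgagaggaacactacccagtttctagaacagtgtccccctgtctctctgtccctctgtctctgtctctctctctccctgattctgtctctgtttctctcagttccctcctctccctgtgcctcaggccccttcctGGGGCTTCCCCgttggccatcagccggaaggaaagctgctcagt
Il12a: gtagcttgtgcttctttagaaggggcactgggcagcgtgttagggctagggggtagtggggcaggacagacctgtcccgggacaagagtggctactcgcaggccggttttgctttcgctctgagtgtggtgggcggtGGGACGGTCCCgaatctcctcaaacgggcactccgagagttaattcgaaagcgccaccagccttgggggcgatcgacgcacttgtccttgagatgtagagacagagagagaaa

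Of 6 patterns searched on both strands, only the NF-kB letters were found in these windows. In Ebi3 they lay from position -44 to -34 relative to the start, as overlapping matches of GGGGCTTCCC and GGGCTTCCCC that each read on both strands, and in Il12a from -113 to -103, as a plus-strand and a minus-strand match that overlap. The same letters occurred in 45.8% of 32841 promoter windows of this length, so a match is common. The other patterns were the interferon-stimulated response element (GAAA repeated after any 2 bases, in 3.0% of windows), AP-1 (TGA and TCA around any base, 6.8%), TTGCNNAA (C/EBP, 9.6%), AGAGGAAGT (PU.1 core, 0.8%) and the TATA box (searched as TATAAA, 12.4%). The Il12b window and the window of the upstream Il12a start, chr3:68690394-68690643, held none of the 6 patterns, which says only that these exact letters are absent.

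Il12b (ENSMUSG00000004296, GRCm38 chromosome 11 from 44400063 to 44414033, plus strand) encodes p40, the chain shared by IL-12 and IL-23. Unpulsed CtrV libraries had 16.4, 21.9 and 22.4 CPM and OVA-pulsed CtrV libraries 30.6, 22.0 and 14.3 CPM for replicates 1, 2 and 3. Unpulsed EKO libraries had 414, 486 and 357 CPM and OVA-pulsed EKO libraries 659, 431 and 466 CPM. Every EKO library was thus far above every CtrV library, and pulsed and unpulsed libraries of a line overlapped.

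Between OVA-pulsed lines Il12b rose 23.5-fold in EKO cells, from 22.3 ± 8.17 to 519 ± 123 CPM (SD, n = 3), or 4.55 on the log2 scale (standard error 0.25, adjusted p = 2.2e-07). All adjusted p-values of gene levels are from quasi-likelihood tests in edgeR, adjusted after Benjamini and Hochberg. Between unpulsed lines it rose 20.4-fold, from 20.2 ± 3.30 to 419 ± 64.4 CPM (log2 fold change 4.35, standard error 0.25, adjusted p = 3.3e-07). Ordered by log2 fold change, it was number 10 of the 14079 tested genes with OVA and number 11 without. Without EKO replicate 1, the log2 fold changes were 4.43 with OVA and 4.43 without.

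Il23a (ENSMUSG00000025383, chromosome 10 from 128296139 to 128298752, minus strand) encodes p19, the chain that makes IL-23 out of p40. Unpulsed CtrV libraries held 29, 59 and 84 counts, or 1.02, 2.11 and 2.88 CPM, and OVA-pulsed CtrV libraries 1.02, 2.38 and 1.56 CPM. Unpulsed EKO libraries had 15.3, 14.5 and 11.0 CPM and OVA-pulsed EKO libraries 16.4, 20.0 and 15.7 CPM. The lines did not overlap, and in EKO cells each pulsed library lay above each unpulsed library, a difference that did not pass the test below.

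Il23a rose 10.6-fold in OVA-pulsed EKO cells, or 3.41 on the log2 scale (standard error 0.27, adjusted p = 2.9e-06), and 6.76-fold in unpulsed EKO cells, or 2.76 on the log2 scale (standard error 0.27, adjusted p = 1.6e-05). It was number 39 and number 100 of the tested genes by log2 fold change. Without EKO replicate 1 the rise was 8.77-fold with OVA (log2 fold change 3.13) and 5.17-fold without (log2 fold change 2.37).

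Ebi3 (ENSMUSG00000003206, chromosome 17 from 55952640 to 55957022, plus strand) encodes the partner chain of p28 in IL-27. Unpulsed CtrV libraries had 127, 129 and 142 CPM and OVA-pulsed CtrV libraries 138, 122 and 132 CPM. Unpulsed EKO libraries had 281, 309 and 317 CPM and OVA-pulsed EKO libraries 329, 311 and 325 CPM. Ebi3 was thus abundant in both lines and varied least among replicates of the members that passed the filter, again with no overlap between the lines.

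Ebi3 rose 2.46-fold in OVA-pulsed EKO cells (log2 fold change 1.30, standard error 0.06, adjusted p = 1.1e-07) and 2.28-fold in unpulsed EKO cells (1.19, standard error 0.06, adjusted p = 2.1e-07), which placed it at numbers 572 and 630. Of its exon bases, 23.4% overlap Gm16712 on the other strand, but Gm16712 itself averaged 0.464 CPM over the 12 libraries. Without EKO replicate 1 the log2 fold changes of Ebi3 were 1.29 with OVA and 1.25 without.

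All 3 members that passed the filter were therefore called higher in EKO cells in both states, beside 25.1% of all tested genes called higher with OVA and 24.5% without (47.0% and 46.4% in either direction). Since such a share of all genes differed, being called says little by itself, and it is the size of the change and the order of the members, Il12b over Il23a over Ebi3 in both states, that describe the family. The share of all tested genes without overlap between the lines is not given here, so the lack of overlap is no trait of the family by itself. The median log2 fold change of all tested genes was 0.001 with OVA and 0 without. These p-values measure the spread between libraries of these pooled clones and of the vector line, and a difference between the lines cannot be told apart from a difference between the clones chosen. In these bulk libraries more cells with a transcript and more transcript per cell cannot be told apart either.

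**Figure D1:**
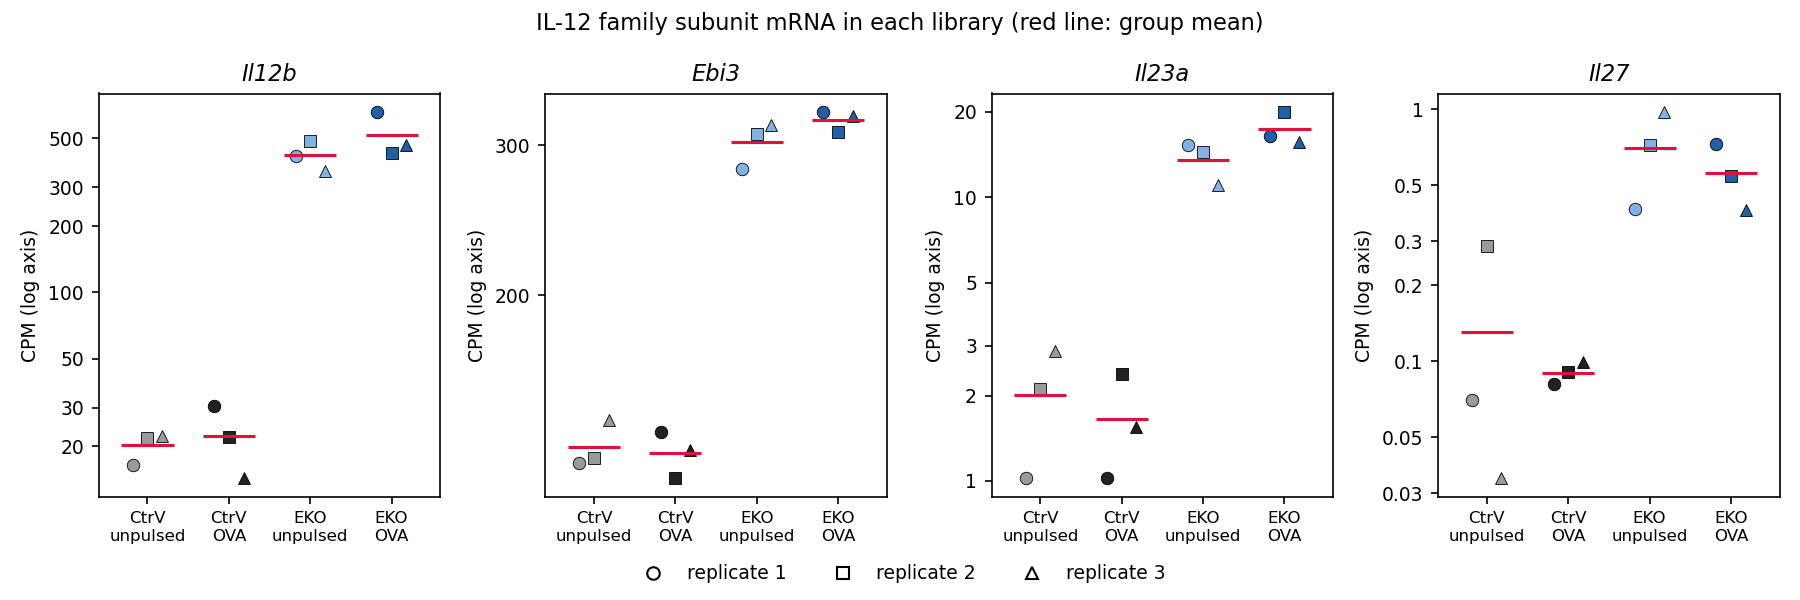
Level of 4 subunit mRNAs (CPM, log axis) in each of the 12 libraries, by line and OVA pulsing, with symbols for the replicate numbers and a red line at the mean of the 3 libraries of a group. Every EKO library lies above every CtrV library for each gene, a separation that was not compared with that of all genes. Il27 stays below 1 CPM throughout.

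Il27 (ENSMUSG00000044701, chromosome 7 from 126589010 to 126594941, minus strand) encodes p28, the α-chain of IL-27, and was barely transcribed. It had 2, 8 and 1 counts in unpulsed and 3, 3 and 3 counts in OVA-pulsed CtrV libraries. It had 11, 22 and 32 counts in unpulsed and 28, 17 and 13 counts in OVA-pulsed EKO libraries. The highest CtrV library, at 0.286 CPM, was below the lowest EKO library, at 0.399 CPM, and Il27 did not reach the expression filter.

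In an exact permutation test of log2 CPM with line labels permuted within pulsing state, chosen after its counts were seen, the 6 EKO libraries exceeded the 6 CtrV libraries by 2.51 on the log2 scale (5.69-fold with 0.5 counts added, two-sided p = 0.005, the smallest that the 400 arrangements can give). This test takes the pulsed and unpulsed libraries of a line as separate units, although same-numbered EKO libraries deviated together (correlations of 0.711, 0.357 and 0.424). With the pulsing states of each line and number averaged, 3 against 3, the exact test gave p = 0.1, the smallest it can give. In a fit of all 28881 genes with at least 1 count, in which 23.2% of genes were called with OVA and 22.5% without, the log2 fold changes of Il27 were 2.60 (standard error 0.53, adjusted p = 0.00048) and 2.43 (standard error 0.50, adjusted p = 0.00056). Of its exon bases, 10.1% overlap Apobr on the other strand, and whether counting used the strand is not stated. Apobr averaged 114 CPM in CtrV and 123 CPM in EKO libraries, and its log2 fold changes of 0.08 and 0.14 were not called (adjusted p = 0.37 and 0.13).

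Il12a (ENSMUSG00000027776, chromosome 3 from 68690644 to 68698547, plus strand) encodes p35, the chain that makes IL-12 out of p40 and IL-35 out of EBI3. It had 0 counts in all 12 libraries, which allows up to 3 counts per library, or between 0.0784 and 0.11 CPM. With Il12a set at that limit, Il12b per kilobase of exon was at least 125-fold to 327-fold higher in the CtrV libraries and at least 3260-fold to 7280-fold higher in the EKO libraries. Il23a per kilobase was at least 7.32-fold to 21.2-fold higher in CtrV and at least 91.1-fold to 159-fold higher in EKO libraries. Whether reads of Il12a were lost in alignment or counting cannot be seen from the deposited counts, so these folds compare counted reads. No read was counted for the α-chain of IL-12 in either line, whereas p19 had at least 29 counts in every library.

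Per kilobase of exon, Ebi3 stood first in CtrV cells, with mean levels of 115 unpulsed and 113 OVA-pulsed CPM per kilobase, followed by Il12b at 10.3 and 11.3, Il23a at 0.892 and 0.737, Il27 and then Il12a. In EKO cells Ebi3 had 262 unpulsed and 279 OVA-pulsed and Il12b 213 and 264 CPM per kilobase, and the ranges of these neighbours overlapped in the unpulsed and in the OVA-pulsed libraries. Il23a followed at 6.05 and 7.74 CPM per kilobase. The other neighbours did not overlap, except that Il27 in CtrV cells, with 1 to 8 counts, was not separable from the limit of 3 counts for Il12a.

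The balance of subunits was measured as the ratio of counts per kilobase within a library, which does not depend on library size. The p-values of the balances likewise take the libraries of both pulsing states as separate units, and with these averaged to 3 against 3 the exact test gave p = 0.1 for each of the 3 balances between the lines, a design that cannot reach 0.05. Il12b exceeded Ebi3 in a single library, OVA-pulsed EKO replicate 1. Its ratio to Ebi3 was 0.076, 0.0999 and 0.0923 in unpulsed and 0.13, 0.106 and 0.0638 in OVA-pulsed CtrV cells, and 0.863, 0.921 and 0.661 in unpulsed and 1.18, 0.812 and 0.842 in OVA-pulsed EKO cells. The p40 message thus stood far below Ebi3 in every CtrV library and close to parity in EKO cells. The difference was 3.23 on the log2 scale (9.39-fold, exact permutation test within pulsing state, two-sided p = 0.005, adjusted p = 0.015 over 3 balances), and 3.12 without EKO replicate 1 (adjusted p = 0.03 by the same exact test).

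For the chains of IL-23, Il12b exceeded Il23a in every library. The ratio of Il12b to Il23a in counts per kilobase was 18.1, 11.8 and 8.83 in unpulsed and 33.7, 10.5 and 10.4 in OVA-pulsed CtrV cells. It was 30.9, 38.3 and 36.9 in unpulsed and 45.7, 24.6 and 33.9 in OVA-pulsed EKO cells. The geometric mean went from 13.8 in CtrV to 34.4 in EKO cells, so p40 rose more than p19, and OVA-pulsed CtrV replicate 1 was the library that lay within the EKO range. The balance of Il23a to Il12b differed by -1.32 on the log2 scale (exact permutation test, two-sided p = 0.01, adjusted p = 0.015). Without EKO replicate 1 it differed by -1.26, and its adjusted p of 0.05 in the exact test no longer passed.

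For the chains of IL-27, Ebi3 exceeded Il27 by 374-fold to 2450-fold in CtrV and by 282-fold to 693-fold in EKO libraries. Both chains rose in EKO cells, and the balance of Il27 to Ebi3 moved by 1.26 on the log2 scale towards Il27 (exact permutation test, two-sided p = 0.02, adjusted p = 0.02). The lines overlapped, unpulsed CtrV replicate 2, with 8 counts of Il27, standing among the EKO libraries. This value rests on few counts: without unpulsed EKO replicate 2 it was 1.24, without unpulsed EKO replicate 3 1.14 and without EKO replicate 1 of both states 1.31, each with an adjusted p of 0.05 in the exact test, which did not pass.

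**Figure D2:**
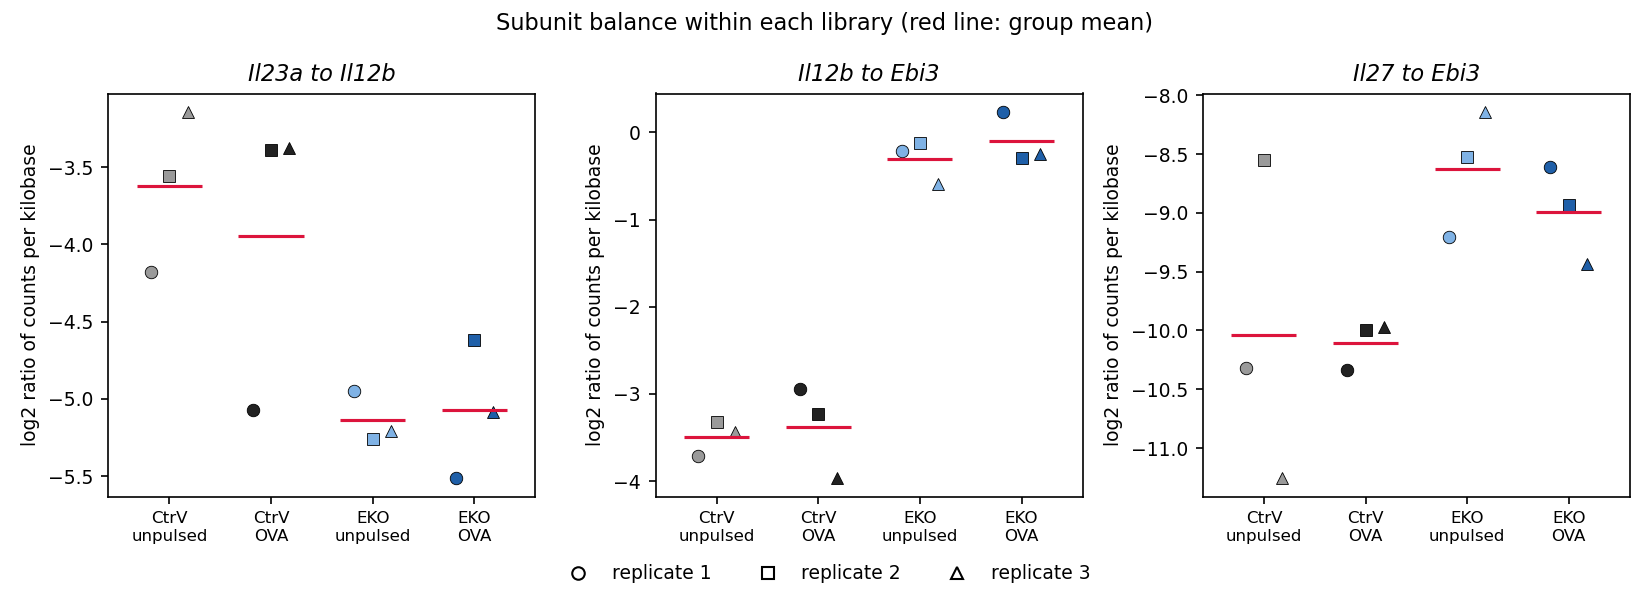
Log2 ratio of counts per kilobase of exon for 3 pairs of subunits in each library, with the red line at the mean of the 3 libraries of a group; 0 means equal levels. Il12b to Ebi3 is near -3.4 in CtrV and near -0.2 in EKO cells without overlap, whereas the other balances overlap between the lines.

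OVA pulsing changed no member beyond the spread. In CtrV cells the log2 fold changes of OVA-pulsed against unpulsed cells were 0.10 for Il12b (95% interval -0.42 to 0.62), -0.30 for Il23a (-1.07 to 0.47) and -0.02 for Ebi3 (-0.16 to 0.12). In EKO cells they were 0.30 for Il12b (-0.17 to 0.77), 0.35 for Il23a (-0.11 to 0.81) and 0.09 for Ebi3 (-0.05 to 0.23). All adjusted p-values were 1, and edgeR called 0 of 14079 genes (0%) in either line, with 231 genes in CtrV and 394 in EKO cells at an unadjusted p under 0.05; DESeq2 called no member either.

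The dependence of the line difference on pulsing was 0.20 for Il12b (95% interval -0.49 to 0.90), 0.66 for Il23a (-0.25 to 1.56) and 0.11 for Ebi3 (-0.09 to 0.31), each with an adjusted p of 1, beside 0% of genes called and 269 genes at an unadjusted p under 0.05. The larger rise of Il23a with OVA than without was therefore not separable from the spread. Il27 differed by -0.18 on the log2 scale with pulsing (exact permutation test, two-sided p = 0.72), and the 3 balances moved by -0.13 (Il23a to Il12b), -0.21 (Il27 to Ebi3) and 0.16 (Il12b to Ebi3), with an adjusted p of 0.745 for each in the exact test.

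**Figure D3:**
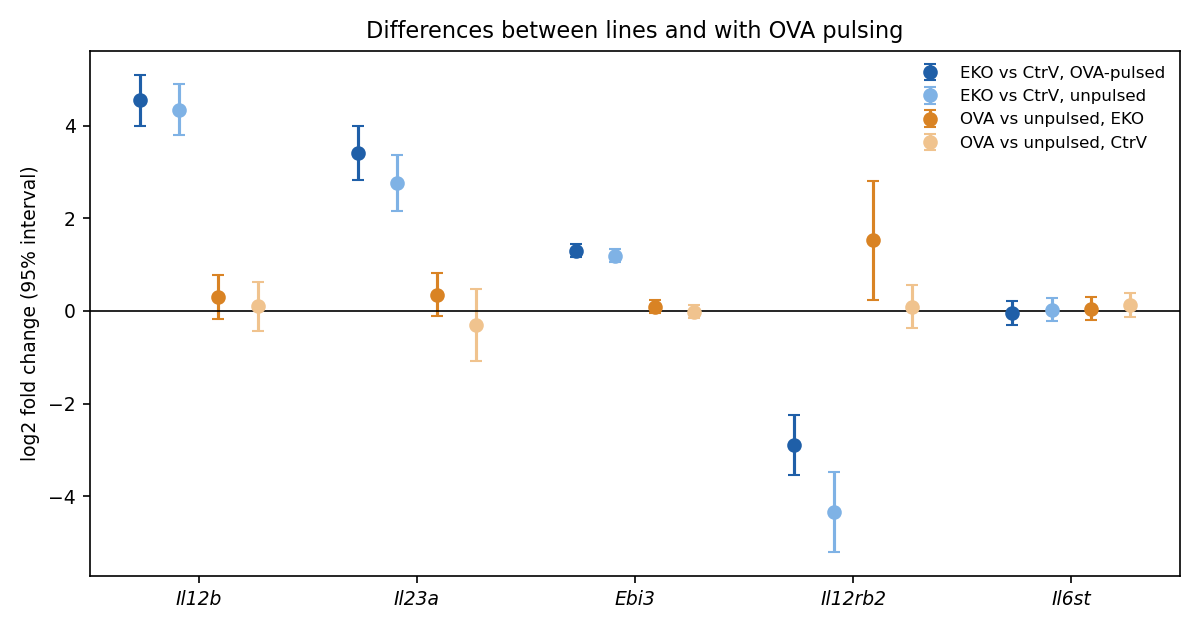
Log2 fold changes with 95% intervals of 3 subunits and of the receptor chains Il12rb2 and Il6st, between the lines (blue) and with OVA pulsing within a line (orange). The intervals of the subunits lie above 0 between the lines and include 0 for pulsing, and Il12rb2, with 1 to 10 counts in EKO libraries, passed the filter through CtrV libraries alone.

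The receptor chains were mostly near the limit of detection. Il12rb2, the signalling chain of the IL-12 receptor, had 30, 28 and 64 counts in unpulsed and 53, 39 and 55 in OVA-pulsed CtrV cells, but 2, 3 and 1 in unpulsed and 5, 5 and 10 in OVA-pulsed EKO cells. It was thus lower in every EKO library, and it passed the expression filter through the CtrV libraries alone, so its fall among filtered genes is no finding by itself. In the fit of all 28881 genes with at least 1 count, where no filter chose it, the log2 fold changes of Il12rb2 were -2.91 with OVA (adjusted p = 2.4e-08) and -4.33 without (adjusted p = 3.5e-09). These sizes rest on 1 to 10 counts in the EKO libraries, and among filtered genes leaving out unpulsed EKO replicate 3 moved the unpulsed value from -4.34 to -3.63. Within EKO cells it was higher after pulsing by 1.53 on the log2 scale at these low counts (unadjusted p = 0.024 in edgeR's test among the filtered genes, adjusted p = 1), which did not pass.

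Il6st, the gp130 chain shared by IL-27 and IL-6 receptors, had 45.6 to 94.9 CPM in CtrV and 48.5 to 102 CPM in EKO libraries, and its log2 fold changes of -0.05 and 0.03 were not called (adjusted p = 0.76 and 0.85), the second being -0.10 without EKO replicate 1. The remaining chains did not pass the filter. Il12rb1, shared by the IL-12 and IL-23 receptors, had 5 to 18 counts per library, Il23r 0 to 2, and Il27ra, the specific chain for IL-27, 2 to 7 counts in CtrV and 0 to 1 in EKO libraries.

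Of the 43 listed genes of the wider pathway, 34 passed the filter. In EKO against CtrV cells with OVA, 23 were called higher, 3 lower and 8 not called, against 19, 3 and 12 without OVA. Of the 34, 2 passed the filter through the libraries of a single line and had to differ, Il12rb2 through CtrV and a transcription factor through EKO libraries, and both are in these counts. The list was compiled with earlier results of these data known, and its counts stand beside 25.1% and 24.5% of all tested genes called higher and 21.9% called lower in each state. The median log2 fold change of the 34 genes was 0.59 with OVA and 0.37 without, next to 0.001 and 0 for all genes. OVA pulsing called 0 of the 34 in either line, and the dependence of the line difference on pulsing was called for 0. The counts with and without OVA therefore differ in calls only.

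Among kinases and STATs that carry the signal of these cytokines, 4 of 6 were called higher in EKO cells with OVA and 3 of 6 without (median log2 fold changes 0.42 and 0.37). Of all tested genes, 25.1% and 24.5% were called higher. Stat4, known as the main mediator of IL-12 signalling, had 15.4, 6.22 and 8.48 CPM in OVA-pulsed CtrV and 59.2, 20.7 and 39.5 CPM in OVA-pulsed EKO cells, and rose by 1.98 on the log2 scale (standard error 0.46, adjusted p = 0.0047). Without OVA the EKO libraries had 48.3, 10.6 and 10.9 CPM and the CtrV libraries 7.46, 11.6 and 17.6 CPM, with a log2 fold change of 0.61 that was not called (adjusted p = 0.32) and that was -0.11 without EKO replicate 1 and -0.09 without unpulsed CtrV replicate 1. Stat3, which serves IL-23 and IL-6, rose by 0.60 with OVA (adjusted p = 0.00043) and 0.46 without (adjusted p = 0.0025) on the log2 scale.

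Among 20 tested transcription factors described at subunit promoters, 14 rose and 1 fell in EKO against CtrV cells with OVA. Without OVA 12 rose and 1 fell (median log2 fold changes 0.73 and 0.42). The share of all tested genes called higher was 25.1% with OVA and 24.5% without, and 21.9% were called lower in each state. Of the factors that rose, 1 passed the filter through EKO libraries alone and had to differ. Nfkbiz, which encodes IκBζ, a nuclear cofactor of NF-kB at secondary response genes such as Il12b, had 99.9 to 142 CPM in CtrV and 433 to 555 CPM in EKO libraries. It rose 4.72-fold with OVA (log2 fold change 2.24, standard error 0.13, adjusted p = 4e-07) and 4.59-fold without (2.20, standard error 0.13, adjusted p = 4.9e-07). Irf7, a factor of the interferon response, had 32.1 to 66.4 CPM in CtrV and 122 to 321 CPM in EKO libraries, with log2 fold changes of 2.28 (adjusted p = 0.00035) and 2.53 (adjusted p = 2e-04). Without OVA-pulsed CtrV replicate 1 the log2 fold change of Irf7 with OVA was 2.93. Atf3, a stress-induced factor known to restrain Il12b, also rose, by 1.72 (adjusted p = 5.9e-05) and 1.98 (adjusted p = 2.5e-05).

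The list of inhibitory feedback held 4 tested genes, and all 4 were called higher in EKO cells in both states (median log2 fold changes 0.53 and 0.48). This stands beside 25.1% and 24.5% of all tested genes. So short a list, compiled with earlier results known, says little about the role as a whole. Socs3, an inhibitor of cytokine signalling through gp130, had 20.6 to 29.6 CPM in CtrV and 60.8 to 96.4 CPM in EKO libraries and rose by 1.60 with OVA (adjusted p = 3.6e-05) and 1.61 without (adjusted p = 3.9e-05). Il10ra, the ligand-binding chain of the IL-10 receptor, rose by 0.60 (adjusted p = 2.8e-05) and 0.58 (adjusted p = 3.9e-05). Socs1, an inhibitor of Janus kinases, rose by 0.45 (adjusted p = 0.0041) and 0.31 (adjusted p = 0.03). Both calls of Socs1 were lost without the replicate block (adjusted p = 0.059 and 0.18). Il10 itself, which represses subunit transcription, did not pass the filter, with 0 to 1 counts in CtrV and 1 to 10 in EKO libraries.

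Of genes known as output of T and NK cells that receive these cytokines, 2 of 5 passed the filter. Tbx21, which encodes T-bet and is also expressed in DCs, had 71.4, 67.5 and 52.0 CPM in unpulsed and 72.7, 68.2 and 53.3 CPM in OVA-pulsed CtrV cells, and 1.41 to 2.51 CPM in the EKO libraries. It fell by 4.95 with OVA (adjusted p = 1.3e-11) and by 5.03 without (adjusted p = 1.5e-11) on the log2 scale. These sizes rest on 46 to 96 counts in the EKO libraries. Il22 rose by 1.22 with OVA (adjusted p = 0.011), a call that was lost without OVA-pulsed CtrV replicate 1 (1.02, adjusted p = 0.056), and its log2 fold change of 0.41 without OVA was not called (adjusted p = 0.36) and was -0.23 without EKO replicate 1. Ifng, which IL-12 induces, had 0 to 3 counts per library.

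**Figure D4:**
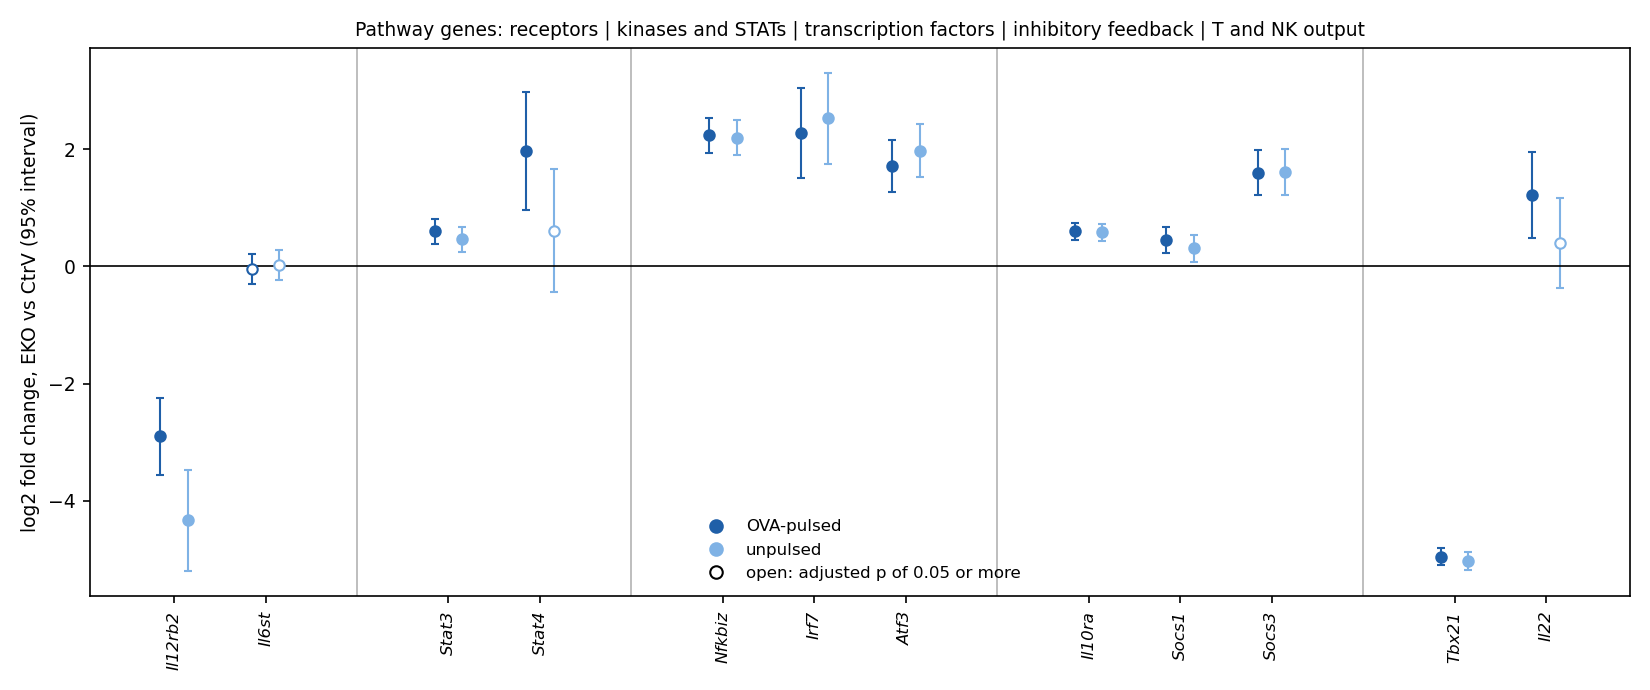
Log2 fold changes of EKO against CtrV cells with 95% intervals for the 12 pathway genes named in the text that passed the filter, by role, with OVA (dark) and without (light); open symbols did not pass an adjusted p of 0.05. Tbx21 stands near -5 in both states, Il12rb2 passed the filter through CtrV libraries alone, and Nfkbiz, Irf7, Atf3 and Socs3 lie above 1.

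The genes with the pattern most like each member were ranked by Pearson correlation of log2 CPM over the 12 libraries, as a description, since all of these libraries share the same large step between the lines. Nearest to Il12b were Nos2 (r = 0.998), which encodes inducible nitric oxide synthase, Itga5 (0.997) and Ass1 (0.997). Nearest to Il23a were Cxcl2 (0.987), a neutrophil chemokine, St7 (0.986) and Lyrm1 (0.985), and nearest to Ebi3 were AC166110.3 (0.998), Gpr31a (0.997) and Rab11fip5 (0.997). Within groups, the correlation of deviations from the group means lay between 0.75 and 0.90 for these 9 genes, and all 9 averaged higher in EKO than in CtrV libraries, as with Nos2 at 6.21 and 60.8 CPM. Because the genes were picked by correlation over these same libraries, both traits follow largely from the choice and are no separate result.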

How the data were processed

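RNA of 12 libraries of Sp37A3 cells was sequenced after TruSeq stranded mRNA preparation. The table that the authors deposited gives raw counts for every gene and library: per the labels and methods, reads were aligned to mm10 with STAR, and read ends were counted on the exon union of Ensembl genes with featureCounts. Reads that fit several places were assigned to a single location, and whether counting used the strand is not stated. From these counts TMM factors, CPM and all tests were computed here. Gene positions and exon lengths came from GENCODE M21 (GRCm38), which may differ from the authors' gene model. Of 55401 genes, 28881 were seen in some library, with 1 count or more, and 14079 were tested (2 or more libraries with log2 CPM over 0). Totals of 27116201 to 39698572 counts (median 31290683) put 3 counts, the smallest level taken as visible, at 0.0784 to 0.11 CPM. Limits and floors cover counting error only.

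Groups and replicate numbers came from the titles. edgeR 4.0.16 in R 4.3.3 was fitted over all 12 libraries with group and replicate number in the model, after the study's methods, with quasi-likelihood tests, whose p-values were adjusted by Benjamini-Hochberg across the 14079 genes; genes were called at an adjusted p under 0.05. The common dispersion was 0.0059. Deviations of same-numbered libraries correlated at 0.45, 0.295 and 0.298 between OVA-pulsed lines and at 0.066, -0.009 and 0.271 between unpulsed lines, and between pulsed and unpulsed libraries at 0.711, 0.357 and 0.424 in EKO and 0.089, 0.185 and 0.385 in CtrV cells, so the replicate block was also left out as an alternative. Nothing in the labels says that replicates were separate cultures, and p-values measure the spread between these libraries.

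Balances were log2 ratios of counts per kilobase with 0.5 counts added, tested by exact permutation within the other factor (400 arrangements, smallest p 0.005), and also as 3 against 3 replicate means (20 arrangements, smallest p 0.1), a test added after the data were seen. Of 6 balances chosen, 3 could be computed. Alternatives were DESeq2 1.42.0, limma 3.58.1 (voom), other normalizations, filters and thresholds, and leaving out libraries. Only the main edgeR fit was run on simulated counts, with independent libraries. The permutation tests, the balances, the unfiltered fit and the motif search were not covered by it. Members, lists and alternatives were chosen with earlier results of these data known. Named genes were the members, the receptor chains, at most 3 genes of every other role with the largest absolute log2 fold change among those called with OVA (average log2 CPM no less than 1), and the 3 genes most correlated with each member. Items withheld from the text are not reported here by name. Motifs were searched by exact letters in RefSeq promoter windows.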

Additional observations from a re-analysis of the deposited data

How the results depend on the processing

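In all the alternatives run other than leaving out a library, Il12b, Il23a and Ebi3 stayed called higher in EKO cells in both states, with log2 fold changes with OVA of 4.52 to 4.57, 3.37 to 3.43 and 1.26 to 1.30. Leaving out libraries gave 4.34 to 4.82, 3.13 to 3.68 and 1.25 to 1.37 with OVA and 4.10 to 4.58, 2.37 to 3.22 and 1.14 to 1.25 without. Without a filter 4 members were called, Il27 being added. Without the replicate block the log2 fold changes were 4.53, 3.40 and 1.30 with OVA and 4.37, 2.75 and 1.19 without. With the block, a sign-flip test over 6 pairs left each balance between the lines at an adjusted p of 0.0312, the smallest that 6 pairs allow. That test too takes both pulsing states of a replicate number as separate units. Among the genes named, the block changed the call of Socs1 alone (0.45 and 0.32 without it). When calls also had to reach 1 on the log2 scale, 12 pathway genes were called higher with OVA and 9 without, in place of 23 and 19, because of the limit itself, and Stat3, Socs1 and Il10ra were no longer called. At an adjusted p under 0.01 Il22 with OVA and Socs1 without OVA were not called. Socs1 without OVA also lost its call with upper-quartile normalization (0.26) and without any of 4 libraries.

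Leaving out libraries, the balance of Il27 to Ebi3 between the lines ranged from 0.96 to 1.64 and that of Il23a to Il12b from -1.60 to -1.18; the adjusted p reached 0.05 for the first in 3 settings and for the second without EKO replicate 1 (-1.26), where fewer arrangements remain. With both pulsing states of a replicate averaged, 3 against 3, the differences between the lines of -1.32 (Il23a to Il12b), 1.26 (Il27 to Ebi3) and 3.23 (Il12b to Ebi3) no longer passed, at an adjusted p of 0.1 each in the exact test, the smallest that 20 arrangements allow. The 3 balances with Il12a were not run, since Il12a had no count. Leaving out EKO replicate 1 in both states was chosen after seeing the data. Depth limits what can be said of Il12a, Il27, Il23r and Il27ra.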
